A study of Mus musculus with 18 samples.

Results

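The 10 genes described here encode interleukin-6 (IL-6) family cytokines and the core of the gp130 signalling route: the ligands Il6, Lif, Osm and Il11, the receptor chains Il6ra, Il6st (which encodes gp130), Osmr and Lifr, the transcription factor Stat3 and its feedback inhibitor Socs3. They were chosen by gene symbol as members of this pathway, with earlier results of these data known, and are 10 of the 34989 genes to which the transcripts of the 18 RNA sequencing libraries were summed. The libraries came from hearts of C57B/L6 mice, labelled as 12 weeks old (the study's methods give a younger range), that were infused with HTK, a cardioplegic preservation solution, and kept in ice-cold HTK for 0, 4 or 8 h. Every heart, those of the 0 h groups included, was then perfused ex vivo with Krebs buffer for 1 h before the left ventricle (LV) and the right ventricle (RV) were frozen, so no group shows a heart that was neither flushed nor perfused. Each of the 6 groups (LV and RV at 0, 4 and 8 h) held 3 libraries of whole ventricular tissue.

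IL-6 family cytokines share one signalling chain. Each ligand binds a receptor complex that contains gp130: IL-6 and IL-11 act through their own alpha receptors and a gp130 pair, LIF through LIFR with gp130, and oncostatin M through OSMR with gp130 and, to an extent that depends on species, through LIFR. Receptor-bound Janus kinases then phosphorylate STAT3, which enters the nucleus and induces acute-phase, survival and feedback genes, and SOCS3 binds gp130 and the kinases and ends the signal. In the heart the family is known for stress responses of myocytes, fibroblasts, endothelium and macrophages.

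Il6, Lif, Osmr and Socs3 were the members called higher in every comparison of stored with unstored tissue (by the values given below for each library), and their promoters are printed here to show the start-site regions of those genes. RefSeq promoter windows of build GRCm38.p6, which run from 250 bases before to 50 bases after a start site, were found for 9 of the 10 members, and Osm was not matched. Capitals mark matches on either strand to TTCNNNGAA (the palindromic STAT element), GGGANTTNC (all but the last letter of a common NF-kB element) or TGANTCA (an AP-1 element).
Il6 promoter, chr5:30012864-30013163, plus strand: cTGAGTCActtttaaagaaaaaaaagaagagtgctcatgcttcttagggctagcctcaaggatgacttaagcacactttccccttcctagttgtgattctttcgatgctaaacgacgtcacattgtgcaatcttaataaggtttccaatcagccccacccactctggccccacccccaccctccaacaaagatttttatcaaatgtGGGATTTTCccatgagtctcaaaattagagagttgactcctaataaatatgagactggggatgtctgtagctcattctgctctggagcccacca
Lif promoter, chr11:4257318-4257617, plus strand: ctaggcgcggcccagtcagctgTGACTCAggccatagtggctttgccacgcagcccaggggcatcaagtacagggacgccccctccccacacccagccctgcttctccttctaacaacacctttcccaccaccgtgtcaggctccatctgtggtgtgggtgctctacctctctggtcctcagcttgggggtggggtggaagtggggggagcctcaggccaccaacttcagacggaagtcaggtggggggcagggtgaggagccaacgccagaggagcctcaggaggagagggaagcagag
Osmr promoter, chr15:6874264-6874563, minus strand: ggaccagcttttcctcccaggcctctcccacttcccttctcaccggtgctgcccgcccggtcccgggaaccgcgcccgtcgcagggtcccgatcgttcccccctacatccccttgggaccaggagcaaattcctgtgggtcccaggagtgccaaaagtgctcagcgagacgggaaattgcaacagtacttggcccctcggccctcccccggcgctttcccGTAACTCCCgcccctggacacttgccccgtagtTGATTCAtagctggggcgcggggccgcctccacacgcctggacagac
Socs3 promoter, chr11:117969317-117969616, minus strand: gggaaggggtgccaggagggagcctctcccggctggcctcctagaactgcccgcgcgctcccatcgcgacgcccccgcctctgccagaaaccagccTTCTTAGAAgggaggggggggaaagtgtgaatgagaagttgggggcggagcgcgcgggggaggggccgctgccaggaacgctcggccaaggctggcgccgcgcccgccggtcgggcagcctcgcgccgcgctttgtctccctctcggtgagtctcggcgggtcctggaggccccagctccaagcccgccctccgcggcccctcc
The STAT element occurred in the window of 1 of the 9 matched members, Socs3, from 154 to 146 bases before the start, and in 8.3% of all 32851 promoter windows. The NF-kB letters occurred in 2 of the 9, Il6 (44 to 36 bases before the start) and, on the opposite strand, Osmr (30 to 22 bases before the start), against 4.26% of all windows. The AP-1 element occurred in 4 of the 9, Il6, Lif, Il11 (in the second of its 2 windows) and Osmr (4 to 10 bases after the start), against 7.81% of all windows. No 2 of these matches overlapped. A match is a run of letters and says nothing of occupancy.

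The libraries held 22552581 to 46236771 estimated counts, of which 22.7% to 34.4% lay on mitochondrial genes. The mitochondrial share was 22.7% to 32.6% at 0 h, 24.9% to 27.7% at 4 h and 32.0% to 34.4% at 8 h. Within a group the lowest pairwise Pearson correlation of log2 CPM across genes was 0.945, in RV at 8 h, and no 2 libraries were identical. Summed levels of 8 ventricular cardiomyocyte markers were 54030 to 65240 CPM (counts scaled to a common library size) at 0 h, 53100 to 60560 at 4 h and 28770 to 54440 at 8 h, with the lowest value in RV replicate 3 at 8 h, against 53.5 to 799.6 CPM for 4 atrial markers in any library. Levels below are CPM scaled by the trimmed mean of M values over the 18 libraries, and a gene was called when its fold change exceeded 1.5 and its adjusted p from edgeR was below 0.1. The labels do not say that libraries of a group came from separate animals in each case, so p-values measure the spread between these libraries. In bulk tissue, a change in the number of cells of a type and a change in RNA per cell cannot be told apart.

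Il6 reached the largest fold change of the 10 members, in RV after 8 h. In LV its level was 18.2, 8.95 and 4.85 CPM at 0 h, 153.2, 72.4 and 133.0 CPM at 4 h, and 193.9, 152.7 and 258.0 CPM at 8 h. In RV it was 8.36, 5.21 and 5.13 CPM at 0 h, 165.4, 71.2 and 64.7 CPM at 4 h, and 338.9, 246.6 and 367.3 CPM at 8 h. Each stored library lay above every unstored library of its ventricle, and in RV the 8 h libraries also lay above the 4 h libraries. The log2 fold change against 0 h was 3.48 ± 0.49 (SE) at 4 h and 4.24 ± 0.51 at 8 h in LV (edgeR adjusted p = 0.0228 and 0.00614). In RV it was 4.02 ± 0.42 at 4 h and 5.68 ± 0.45 at 8 h (edgeR adjusted p = 0.00306 and 0.000543). The 4 h and 8 h comparisons of a ventricle share the same 0 h libraries throughout.

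Lif, which encodes leukaemia inhibitory factor, was near 1 to 4 CPM in unstored tissue. In LV the libraries held 4.23, 1.28 and 1.31 CPM at 0 h, 25.1, 21.5 and 43.5 CPM at 4 h, and 22.3, 10.8 and 31.3 CPM at 8 h. In RV they held 4.15, 1.02 and 1.11 CPM at 0 h, 29.3, 24.6 and 25.9 CPM at 4 h, and 59.5, 38.3 and 57.9 CPM at 8 h. Replicate 1 was the highest of the unstored libraries in both ventricles, and stored and unstored libraries did not overlap. Lif rose by 3.68 ± 0.57 at 4 h and 3.20 ± 0.57 at 8 h in LV on the log2 scale (edgeR adjusted p = 0.0299 and 0.0234). The rise in RV was 3.67 ± 0.49 at 4 h and 4.63 ± 0.51 at 8 h (edgeR adjusted p = 0.00699 and 0.00139).

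Osm, the oncostatin M gene, and Il11 were scarce, at 9 to 77 and 3 to 119 estimated counts per library, so that their values carry more counting error than those of the other members. Osm was 0.434, 0.473 and 0.280 CPM in unstored LV and 0.894, 0.339 and 1.05 CPM in LV after 8 h. In RV it was 0.351, 0.440 and 0.392 CPM at 0 h, 1.58, 1.32 and 0.346 CPM at 4 h, and 2.57, 2.22 and 1.33 CPM at 8 h. Only in the RV comparison at 8 h did stored and unstored libraries separate, with a log2 fold change of 2.37 ± 0.52 (edgeR adjusted p = 0.0188), while the other comparisons gave 0.72, 0.93 and 1.47 (adjusted p = 0.527, 0.278 and 0.133 by edgeR). Il11, studied in the heart for its part in fibrosis, was 0.439, 0.305 and 0.359 CPM in unstored RV and 2.71, 0.800 and 3.52 CPM in RV after 8 h. Its log2 fold change there was 2.68 ± 0.82 (edgeR adjusted p = 0.0623). That call was lost in 5 of 9 fits that left out 1 library. The Il11 estimates in the other comparisons were 2.10 for LV at 4 h, 2.02 for LV at 8 h and 1.92 for RV at 4 h, and did not pass (edgeR adjusted p = 0.166, 0.12 and 0.209). DESeq2 called Il11 higher in these 3 comparisons (adjusted p = 0.0353, 0.0294 and 0.0947).

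**Figure D1:**
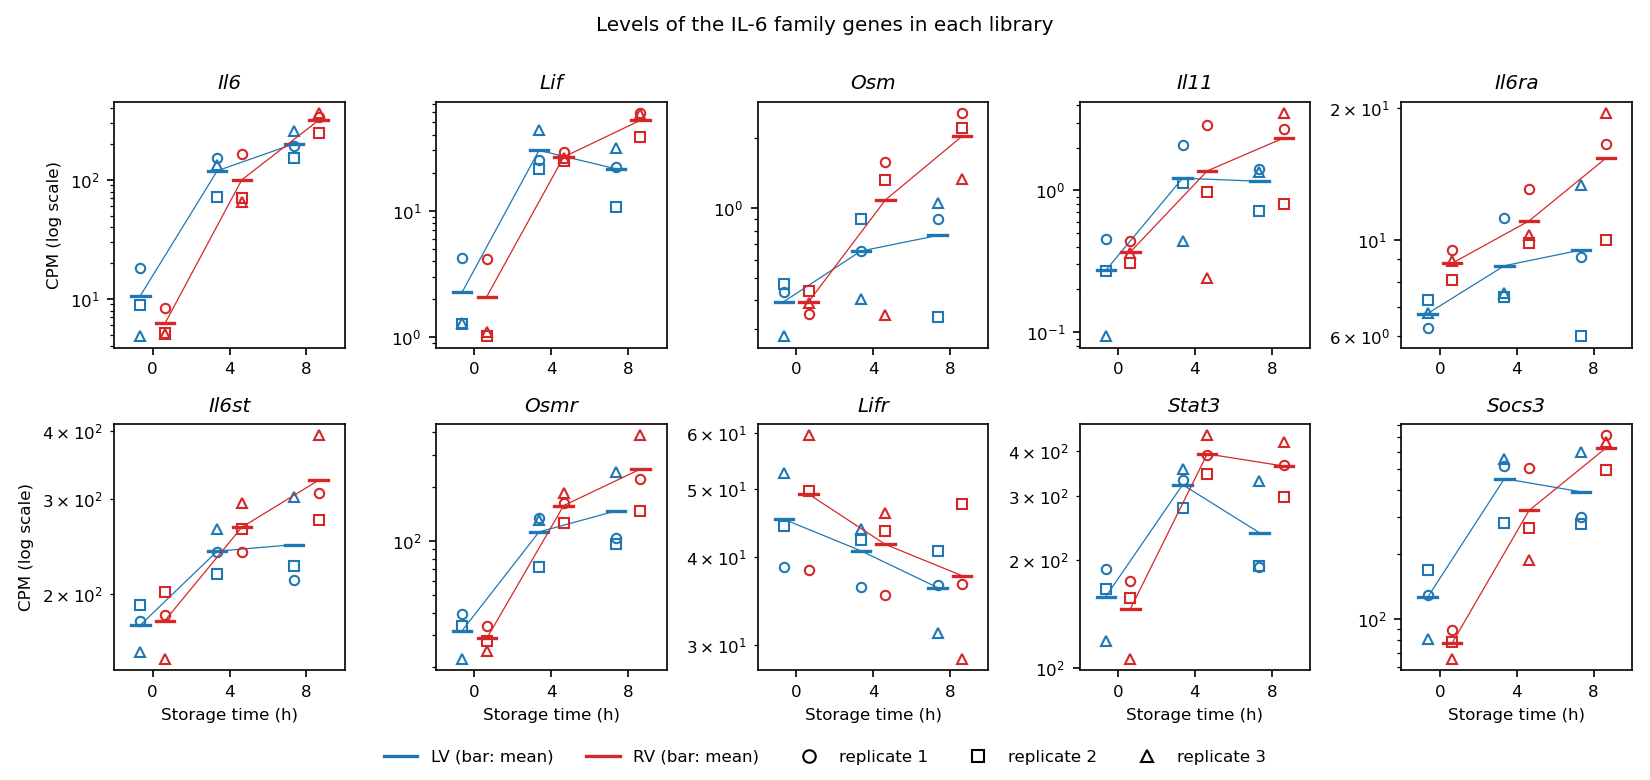
CPM (log axis, a separate scale for each gene) of the 10 members by hours of cold storage, with 1 symbol per library, LV in blue and RV in red, bars at the group means and thin lines joining them. Il6, Lif, Osmr, Stat3 and Socs3 lie higher in all stored libraries than in all unstored libraries of the same ventricle, and Lifr does not rise.

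Among the receptor chains, Osmr, the partner of gp130 for oncostatin M, rose in all 4 comparisons. Its LV libraries held 39.6, 33.9 and 22.2 CPM at 0 h, 134.2, 71.8 and 130.8 CPM at 4 h, and 104.4, 95.8 and 239.9 CPM at 8 h. Its RV libraries held 34.0, 28.1 and 24.6 CPM at 0 h, 161.5, 126.0 and 183.7 CPM at 4 h, and 220.2, 145.8 and 384.9 CPM at 8 h. No stored library fell to the level of an unstored one, and replicate 3 was the highest at 8 h in both ventricles. The log2 fold changes were 1.82 ± 0.40 and 2.20 ± 0.40 in LV at 4 h and 8 h (edgeR adjusted p = 0.073 and 0.0278). In RV they were 2.46 ± 0.36 and 3.14 ± 0.37 (edgeR adjusted p = 0.00827 and 0.00165).

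Il6st, the shared gp130 chain, was abundant from the start and moved little. It was 178.6, 191.6 and 156.6 CPM in unstored LV, 212.8, 225.9 and 302.5 CPM in LV after 8 h, 183.1, 201.9 and 152.1 CPM in unstored RV, and 307.1, 274.3 and 393.0 CPM in RV after 8 h. Stored and unstored libraries did not overlap in any of the 4 comparisons, yet the call was made in RV at 8 h only (log2 fold change 0.88 ± 0.21, edgeR adjusted p = 0.0243). The estimates for LV at 4 h, LV at 8 h and RV at 4 h were 0.45, 0.50 and 0.59 (edgeR adjusted p = 0.213, 0.118 and 0.131). Il6ra, the alpha chain that binds IL-6, was 9.47, 8.09 and 8.91 CPM in unstored RV and 16.6, 10.0 and 19.5 CPM in RV after 8 h, a log2 fold change of 0.82 ± 0.24 (edgeR adjusted p = 0.0583). In LV it was 6.26, 7.26 and 6.78 CPM at 0 h and 9.10, 6.0 and 13.3 CPM at 8 h, groups that overlapped (0.48 ± 0.28, edgeR adjusted p = 0.32). The Il6ra call in RV at 8 h was lost in 5 of 9 fits that left out 1 library.

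Lifr, the LIF receptor, was the member with negative estimates throughout. Its libraries held 38.7, 44.3 and 52.7 CPM in unstored LV, 36.5, 40.8 and 31.2 CPM in LV after 8 h, 38.3, 49.5 and 59.5 CPM in unstored RV, and 36.6, 47.5 and 28.7 CPM in RV after 8 h. Stored and unstored groups overlapped in all 4 comparisons. Its LV estimates, on the log2 scale, were −0.15 at 4 h and −0.32 at 8 h, and its RV estimates were −0.22 and −0.38 (edgeR adjusted p = 0.715, 0.24, 0.685 and 0.26).

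Stat3, the transducer, was 188.8, 166.0 and 118.4 CPM in unstored LV, 334.1, 277.7 and 357.4 CPM at 4 h, and 190.3, 192.4 and 329.9 CPM at 8 h. At 8 h, 2 of the 3 LV libraries lay just above the highest unstored library. In RV it was 174.5, 156.8 and 105.8 CPM at 0 h, 391.2, 346.2 and 443.5 CPM at 4 h, and 367.8, 299.2 and 425.2 CPM at 8 h, with no overlap between stored and unstored tissue. The log2 fold change was 1.04 ± 0.25 in LV at 4 h (edgeR adjusted p = 0.092) and 0.59 ± 0.25 at 8 h (edgeR adjusted p = 0.194). The LV call at 4 h was lost with length offsets, RLE scaling or removal of mitochondrial genes (edgeR adjusted p = 0.113 to 0.147) and in 7 of 9 fits that left out 1 library. In RV it was 1.45 ± 0.24 and 1.34 ± 0.24 (edgeR adjusted p = 0.013 and 0.00895).

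Socs3, the STAT3-induced inhibitor whose promoter window holds the STAT letters printed above, was 129.4, 168.7 and 81.4 CPM in unstored LV, 514.9, 280.7 and 553.2 CPM at 4 h, and 297.7, 277.8 and 595.1 CPM at 8 h. In RV it was 88.9, 78.5 and 65.5 CPM at 0 h, 504.1, 266.5 and 189.1 CPM at 4 h, and 714.2, 492.0 and 662.8 CPM at 8 h. All stored libraries exceeded all unstored ones of their ventricle. The log2 fold changes were 1.83 ± 0.39 and 1.63 ± 0.39 in LV (edgeR adjusted p = 0.0659 and 0.0554) and 2.06 ± 0.34 and 3.02 ± 0.36 in RV (edgeR adjusted p = 0.0135 and 0.00179), at 4 h and 8 h. The LV call of Socs3 was lost in 5 of 9 fits that left out 1 library at 4 h and in 4 of 9 at 8 h.

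**Figure D2:**
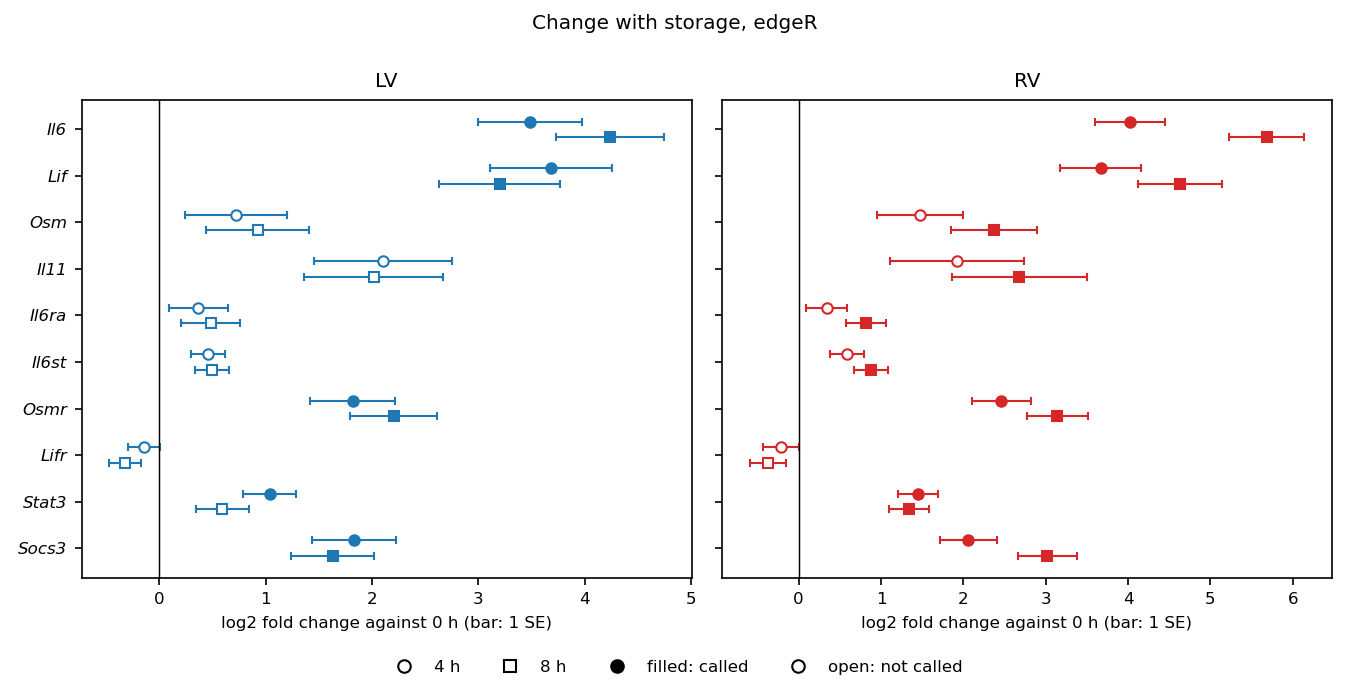
log2 fold change of each member against 0 h with 1 SE, LV on the left and RV on the right, circles for 4 h and squares for 8 h, filled where the gene was called. Il6 in RV at 8 h lies farthest to the right, at 5.68, and Lifr is the member on the left of 0.

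By count, 5 of the 10 members were called higher in LV at 4 h (Il6, Lif, Osmr, Stat3 and Socs3), where 2.4% of the 14564 genes tested were. At 8 h in LV 4 of 10 were called higher (Il6, Lif, Osmr and Socs3), against 5.46% of all genes. The Stat3 call in LV at 4 h was lost under the settings given with its values. In RV 5 of 10 were called higher at 4 h, against 6.17% of 14622 genes, and 9 of 10, all but Lifr, at 8 h, against 13%. No member was called lower, where 0.398%, 1.26%, 3.91% and 5.26% of all genes were, in LV at 4 h and 8 h and RV at 4 h and 8 h. The median log2 fold change of the 10 members was 1.43, 1.28, 1.70 and 2.53 in that order, beside medians over all genes tested of −0.0044, −0.0173, 0.0034 and −0.0719. All stored libraries lay above all unstored ones for 7, 7, 7 and 9 of the 10 members, against 12.9%, 15.5%, 15.1% and 18.5% of all genes. The LV counts depended on which library was left out. Without LV replicate 2 at 0 h, 0 members were called at 4 h and 1 at 8 h. Calls over all genes also dropped there, from 349 to 14 higher at 4 h and from 795 to 130 at 8 h. The 4 h log2 fold changes in that fit were 3.37 for Il6, 3.41 for Lif, 1.86 for Osmr, 1.07 for Stat3 and 2.09 for Socs3. Without LV replicate 3 at 0 h, 1 member was called at 4 h and 2 at 8 h, where 41 and 234 of all genes were called higher. Without LV replicate 1 or 3 at 4 h, 2 members were called at 4 h, where 72 and 78 of all genes were called higher. Without LV replicate 2 at 8 h, 8 members were called at 8 h, where 1422 of all genes were called higher. The member counts thus moved together with the calls over all genes. In RV, leaving out any 1 library left 5 to 7 calls at 4 h and 6 to 9 at 8 h. The share of all genes was not counted in those RV fits.

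Between 4 h and 8 h of storage no member was called in either ventricle, and 0% of all genes were called in LV and 0% in RV, by edgeR. At an unadjusted p under 0.05 there were 0 members in LV and 2 in RV, Il6 and Socs3. The share of all genes under that p was not counted, so these counts have no background to be read against. The RV estimate was 1.66 ± 0.38 on the log2 scale for Il6 (edgeR adjusted p = 0.599) and 0.96 ± 0.34 for Socs3 (edgeR adjusted p = 0.599). DESeq2 called Il6 there, with a log2 fold change of 1.69 and an adjusted p of 0.0138. The corresponding LV estimates were 0.76 ± 0.44 and −0.20 ± 0.38 (edgeR adjusted p = 0.652 and 0.877).

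LV and RV were then compared at each storage time. Without pairing, no member was called between LV and RV at 0 h, 4 h or 8 h, where 0.159%, 0.0133% and 0.0331% of 15093 genes were, and the lowest edgeR adjusted p of a member was 1.0, 1.0 and 0.316. At an unadjusted p under 0.05 there were 0, 0 and 5 members, and without LV replicate 3 at 8 h, 2 members (Il6ra and Stat3) were called there. The share of all genes was not counted at that p or in that fit, so these counts have no background to be read against. LV and RV libraries that carry the same number departed from their groups' means in a correlated way. Same-numbered libraries of different storage times, which came from different hearts, did so too in RV and between 4 h and 8 h in LV. What the number stands for is not stated. Within each storage time it was also entered as a block, called the heart block below. In that fit 8 of the 10 members were called lower in LV than in RV at 8 h, against 6.53% of all genes. At 0 h and at 4 h the blocked fit called no member, against 1.85% and 1.93% of all genes.

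At 8 h Lif gave the largest called difference after Osm. The 3 LV libraries held 10.8 to 31.3 CPM of Lif and the 3 RV libraries 38.3 to 59.5 CPM, with no overlap, and the blocked log2 difference was −1.36 (edgeR adjusted p = 0.000761). Osm was also below all RV libraries in all LV libraries (blocked log2 difference −1.47, edgeR adjusted p = 0.0197), a separation that 5.94% of all genes showed. The blocked log2 differences of the other called members were −0.91 for Il11, −0.79 for Osmr, −0.75 for Socs3, −0.72 for Il6ra, −0.67 for Il6 and −0.65 for Stat3 (edgeR adjusted p = 0.0593, 0.00128, 0.076, 0.000807, 0.0378 and 0.00146). Il6st passed the p threshold at a smaller difference, −0.40 (edgeR adjusted p = 0.00724), and Lifr gave −0.04 (edgeR adjusted p = 0.754). In 9 of the 10 members, all but Lifr, LV was the lower library in each of the 3 same-numbered pairs at 8 h, against 24.1% of all genes. Without the pair numbered 1 at 8 h, 3 members stayed called lower, and leaving out any other pair left 6 to 8. The share of all genes was not counted in these fits, so the counts have no background to be read against.

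**Figure D3:**
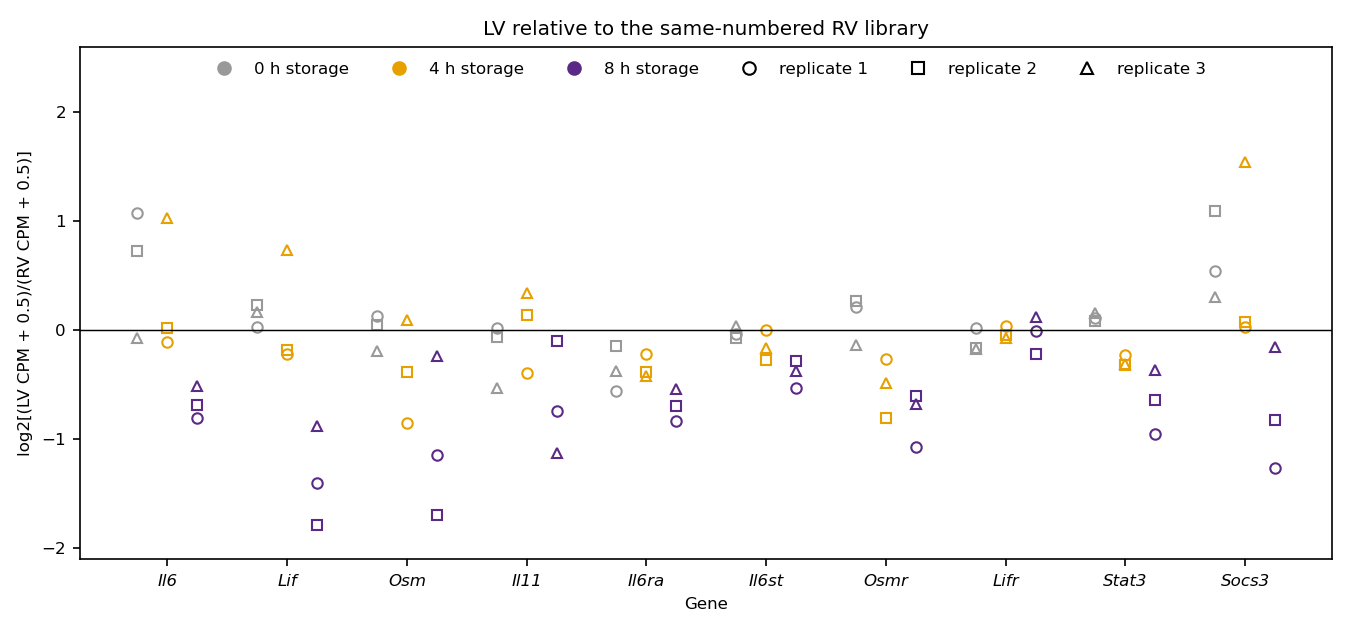
log2 ratio of LV to RV CPM (each plus 0.5) in same-numbered libraries at 0 h (grey), 4 h (orange) and 8 h (purple), 1 symbol per replicate number, for the 10 members. At 8 h all 3 points of 9 members lie below 0, which at 0 h and 4 h holds for 1 and 4 members. At 8 h LV was below RV in every pair for 24.1% of all genes. That share was not counted at 0 h or 4 h, so the times cannot be compared by these counts.

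Whether the change with storage differed between LV and RV depended on the pairing of libraries. No source used here states that a replicate number names a heart. In the unpaired model no member differed in its change to 4 h or to 8 h, and 0% of genes did at 4 h and 0% at 8 h. There were 0 and 2 members at an unadjusted p under 0.05, for which the share of all genes was not counted. With the heart as a block, 5 members had a smaller change to 8 h in LV, against 4.72% of all genes. The differences in log2 fold change were −1.33 for Il6, −1.50 for Lif, −0.91 for Osmr, −0.77 for Stat3 and −1.40 for Socs3 (edgeR adjusted p = 0.0317, 0.0304, 0.0105, 0.00939 and 0.0593). For the change to 4 h the blocked fit called no member, against 0.305% of all genes. The counts at 8 h moved with the pair left out, to 2 without the pair numbered 1 at 0 h, 3 without the pair numbered 2 at 0 h or that numbered 1 at 8 h, and 4 to 6 otherwise. The share of all genes was not counted with a pair left out. Il6 and Socs3 had higher means in LV than in RV in unstored tissue, 10.7 against 6.23 CPM and 126.5 against 77.6 CPM, differences that did not pass (blocked edgeR adjusted p = 0.235 and 0.317).

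Per transcript length, in length-normalised units (TPM), the order of the members changed with storage. In unstored LV the means were 71.3 ± 20.3 (SD, n = 3) for Stat3, 66.8 ± 26.1 for Socs3, 44.7 ± 6.5 for Il6st, 13.4 ± 8.3 for Il6, 9.88 ± 3.23 for Osmr and 8.43 ± 1.51 for Lifr, followed by Il6ra at 1.56, Lif at 1.11, Osm at 0.236 and Il11 at 0.192. Neighbours in that order overlapped between libraries except at Il6st and Il6, Lifr and Il6ra, and Lif and Osm. After 8 h Il6 headed the order in both ventricles, at 204.9 ± 47.2 TPM in LV and 307.2 ± 52.5 TPM in RV, overlapping with Socs3 at 164.4 ± 63.1 and 254.2 ± 46.3 TPM. Lif passed Lifr by mean level in both ventricles from 4 h on, reaching 16.6 ± 2.4 TPM in RV at 8 h against 5.30 ± 1.33 TPM for Lifr. Osm and Il11 stayed at the foot of the order in all groups.

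At the transcript level the same annotated transcript held the largest mean share in all 6 groups for every member but Lif, for which Lif-201 or Lif-202 led. In RV, Il6-201 made up 85.8% ± 5.6 of Il6 TPM at 0 h and 84.8% ± 3.3 at 8 h (SD, n = 3). Osmr-201 made up 79.4% ± 7.1 and 83.5% ± 2.4 of Osmr at the same times, while Osmr-203, annotated as a retained intron, made up 15.0% ± 5.9 and 11.4% ± 1.7. For Il6st, the transcript Il6st-201 held 69.6% ± 2.7 and 67.7% ± 1.1, and the longer Il6st-203 held 17.8% ± 2.0 and 24.7% ± 5.0. Lifr-203, with 19 exons, held 69.1% ± 10.4 and 64.3% ± 3.5 of Lifr. These shares are estimates that divide reads between overlapping transcripts, and no test was run on them.

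The other genes of the pathway were read from lists of kinases, inhibitors, further ligands and receptors, and STAT3-linked targets. Of 20 STAT3-linked target genes, 7, 10, 13 and 18 were called higher in LV at 4 h and 8 h and RV at 4 h and 8 h, against 2.4%, 5.46%, 6.17% and 13% of all genes, and none was called lower. The median log2 fold changes were 1.46, 1.34, 1.66 and 2.68, and the list was chosen with earlier results of these data known. Bcl3, Cebpb, Cebpd, Timp1, Serpina3n and Il4ra were called in all 4 comparisons. Timp1, an inhibitor of matrix metalloproteinases, rose by 3.21, 3.79, 3.49 and 4.73 on the log2 scale in that order (edgeR adjusted p = 0.0239, 0.00685, 0.00722 and 0.00129). Cebpd, a transcription factor of the acute-phase response, rose by 1.78, 2.28, 1.91 and 2.78 (edgeR adjusted p = 0.0112, 0.0025, 0.0106 and 0.00139). Il4ra, a cytokine receptor chain, rose by 1.74, 2.23, 2.12 and 3.07, Serpina3n by 2.27, 3.02, 2.6 and 3.49, Bcl3 by 1.89, 2.31, 2.12 and 2.86 and Cebpb by 1.41, 1.29, 1.53 and 1.73. Bcl2l1 and Vegfa were the 2 targets not called in RV at 8 h, with −0.01 and −0.26 (edgeR adjusted p = 0.96 and 0.467).

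Of 9 inhibitors and shedding proteases, 3, 3, 4 and 6 were called higher (2.4%, 5.46%, 6.17% and 13% of all genes) and 0, 0, 1 and 1 lower (0.398%, 1.26%, 3.91% and 5.26% of all genes), with medians of 0.48, 0.45, 0.61 and 0.72. Socs1, which blocks Janus kinases, rose by 3.16, 4.02, 3.54 and 5.27 on the log2 scale in that order (edgeR adjusted p = 0.0873, 0.0314, 0.0292 and 0.00457). The phosphatases Ptpn1 (0.81, 1.24, 0.97 and 1.61) and Ptpn2 (1.03, 0.96, 1.44 and 1.80) were called higher in all 4 as well. Pias3, an inhibitor of STAT3, was the one called lower, in RV, by −0.79 at 4 h and −0.92 at 8 h (edgeR adjusted p = 0.0465 and 0.0166). Of 10 kinases and transducers, 2, 2, 2 and 4 were called higher and 0, 1, 0 and 0 lower, to be read against the same shares of all genes, with medians of 0.19, 0.16, 0.29 and 0.34. Jak2, a gp130-associated kinase, rose by 1.46, 1.83, 1.90 and 2.54 on the log2 scale.

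Of 7 further ligands of the family that were tested, 0, 2, 2 and 2 were called higher and 0, 0, 0 and 1 lower, where 2.4%, 5.46%, 6.17% and 13% of all genes were called higher and 0.398%, 1.26%, 3.91% and 5.26% lower, and the medians were 0.71, 0.24, 0.72 and 1.05. Ebi3, a subunit of interleukin-27, was called higher in LV at 8 h (2.10) and in RV at 4 h and 8 h (1.61 and 1.99), and Ctf1, cardiotrophin 1, was called lower in RV at 8 h (−0.69, edgeR adjusted p = 0.057). Il27, the other subunit, chosen for mention after its values were seen, was called in the same 3 comparisons as Ebi3 and reached 1.00, 1.20 and 2.07 CPM in RV after 8 h. It held 8, 3 and 9 estimated counts in unstored LV and 2, 1 and 0 in unstored RV. Il27 thus passed the count filter only through stored libraries. Its calls are among the 2 ligands counted above in each of these 3 comparisons, so those counts cannot be read against the shares of all genes. Of 3 further receptors tested, 0, 0, 0 and 1 were called higher, the last being Il27ra in RV at 8 h (0.86, edgeR adjusted p = 0.0504), where 13% of all genes were, and the medians were 0.16, 0.62, −0.01 and 0.67.

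**Figure D4:**
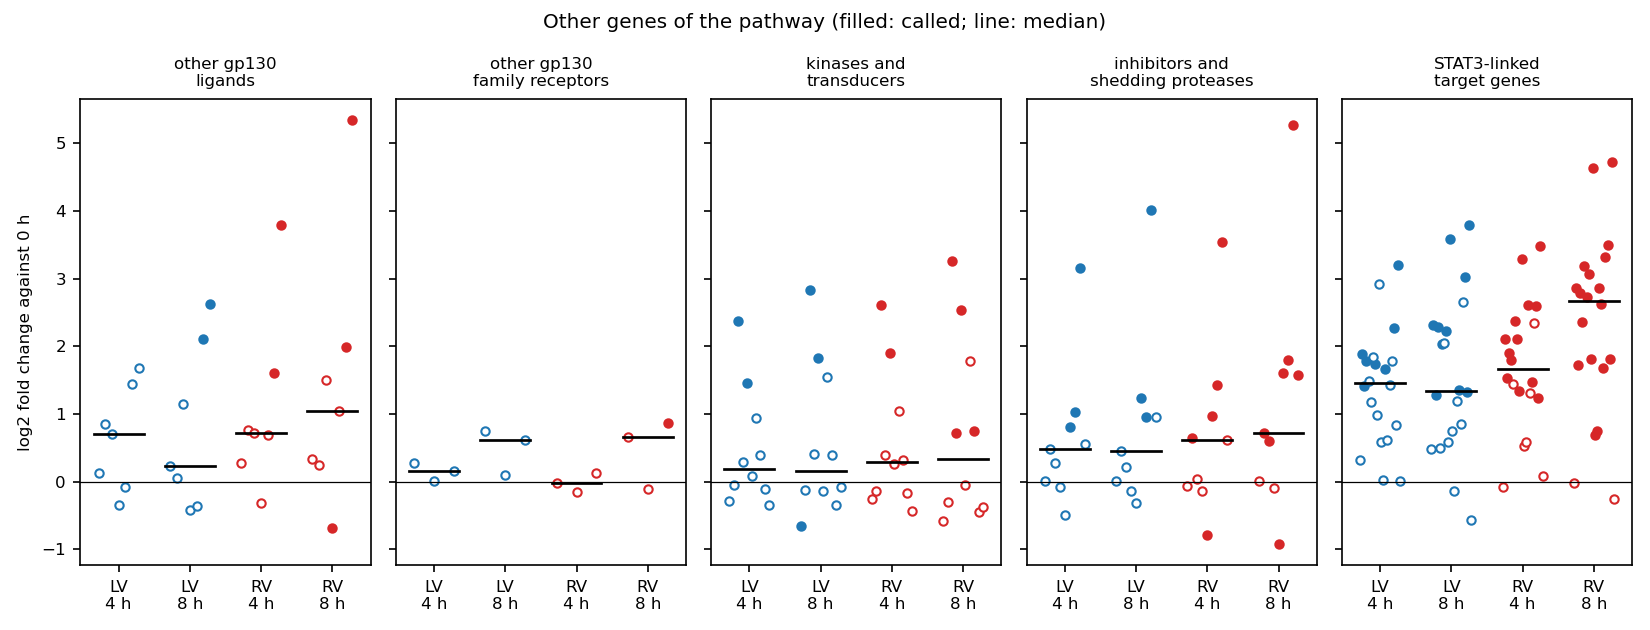
log2 fold change against 0 h of each tested gene of 5 pathway lists in the 4 comparisons, LV in blue and RV in red, filled where called, with black lines at the list medians. The STAT3-linked targets have 7, 10, 13 and 18 filled points and medians of 1.46, 1.34, 1.66 and 2.68, above those of the other lists.

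The genes whose pattern over the 18 libraries was most like that of Il6 were Adamts4, Has1, Il1rn, Timp1 and Ptx3, with root mean square differences of 0.439, 0.467, 0.534, 0.627 and 0.687 in log2 CPM centred on each gene's mean. Adamts4, an aggrecan-cleaving protease, had mean levels of 21.3, 261.9 and 375.5 CPM in LV and 12.3, 278.9 and 698.2 CPM in RV at 0, 4 and 8 h. Ptx3, a pentraxin of innate immunity, went from 18.1 to 710.9 CPM in RV. The genes nearest to Socs3 were Rnf122, Dnajb1, Eid3, Pde12 and Gadd45g, with differences of 0.355 to 0.38. Dnajb1, a heat shock co-chaperone, was at 86.8, 312.7 and 259.3 CPM in LV and 42.4, 152.5 and 368.1 CPM in RV. The comparison covered 15092 other genes and is a description.

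Markers of cell types moved with storage beside these genes. The summed level of 7 neutrophil markers was 1.80 to 3.56 CPM at 0 h, 3.98 to 10.4 CPM at 4 h and 10.6 to 20.0 CPM at 8 h. Of the 4 tested in LV, 1 was called higher at 4 h and 3 at 8 h, and of the 2 tested in RV, 1 was called higher at each time, against the shares of all genes given above for these comparisons (2.4%, 5.46%, 6.17% and 13%). Csf3r, the receptor of granulocyte colony-stimulating factor, was called in all 4 and went from a mean of 1.40 to 7.93 CPM in LV and from 1.78 to 13.1 CPM in RV between 0 h and 8 h. S100a9 went from 0.0276 to 3.10 CPM and S100a8 from 0.0112 to 1.54 CPM in LV, both called at 8 h. These 2 genes were near 0 in unstored LV and passed the count filter only through the LV libraries at 8 h. Their calls are among the 3 counted above, so that count cannot be read against 5.46%. Retnlg was at 0 in unstored LV and at 0.779 CPM after 8 h, while Ly6g was at 0 in all libraries but 1. For 7 macrophage markers the sums were 188.2 to 399.5 CPM at 0 h, 186.6 to 304.3 CPM at 4 h and 242.8 to 534.7 CPM at 8 h, and 3 of 7 were called higher in RV at 8 h, against 13% of all genes, and 0 in the other 3 comparisons. For 6 fibroblast markers they were 747.4 to 939.9, 746.7 to 1129 and 882.0 to 1804 CPM, and the 1 of 6 called higher in RV at 8 h is near that 13%. The sum of 5 mural cell markers, 568.1 to 1164 CPM, was mostly Rgs5, and 3 of the 5 were called lower in RV at 4 h and 2 at 8 h, against 3.91% and 5.26% of all genes. Among them Kcnj8, a potassium channel gene of pericytes, went from 36.8 CPM in unstored RV to 14.6 CPM at 4 h and 13.2 CPM at 8 h. Rgs5 and Myh11 went the other way in RV between 0 h and 8 h and were not called. Their means were 512.6 and 755.4 CPM for Rgs5 and 44.7 and 59.0 CPM for Myh11. Erythroid markers summed to 2.40 to 195.8 CPM, highest in replicate 1 of the stored groups. In LV at 8 h, 2 of 4 tested were called higher, against 5.46% of all genes. Myh6, 1 of 8 ventricular cardiomyocyte markers, was called lower in LV at 8 h, against 1.26% of all genes. The other calls were in RV at 4 h. Tek, 1 of 7 endothelial markers, was called lower, against 3.91% of all genes. Cd3d, 1 of 2 lymphocyte markers tested, was called higher, against 6.17%. Sums were 507.9 to 1131 CPM for endothelial and 0.555 to 4.09 CPM for lymphocyte markers. At 8 h the macrophage sum was 417.5, 282.7 and 242.8 CPM in LV and 534.7, 305.1 and 286.2 CPM in RV, and the fibroblast sum was 1362, 882.0 and 937.1 CPM in LV and 1804, 977.7 and 1074 CPM in RV. Both sums were thus lower in LV in each same-numbered pair at 8 h, as they were in each pair at 0 h and at 4 h. The part of all these markers, of the mitochondrial share and of the lower cardiomyocyte markers at 8 h in the results for the family was not tested.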

How the data were processed

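Polyadenylated RNA was selected and sequenced from directional libraries, per the study's methods. The authors quantified transcripts with kallisto against the GRCm38 transcriptome and deposited, for each library, an estimated count and a TPM value per transcript. Here 110203 of 111462 transcripts were assigned to genes by the GENCODE M21 annotation, and the estimated counts were summed per gene and rounded. The 1259 unmatched transcripts held 0.31% to 0.383% of the estimated counts in a library and were left out. TPM values were summed as deposited and used only to compare levels between genes. The edgeR quasi-likelihood test (edgeR 4.0.16, R 4.3.3) was run with trimmed mean of M values scaling, the filterByExpr filter and Benjamini-Hochberg adjustment over all genes tested. The 9 libraries of a ventricle were fitted together for storage comparisons, and all 18 for comparisons between ventricles. A gene was called at an adjusted p under 0.1 and a fold over 1.5, the thresholds of the study's methods, which used DESeq2. DESeq2 (1.42.0), length offsets, other scaling, no filter, removal of mitochondrial genes, a replicate block and leaving out each library were alternatives. Leaving out whole same-numbered pairs in the blocked fit was chosen after seeing the data. The edgeR fit, with and without a block, and the DESeq2 fit without a block were tried on simulated data. Length offsets, other scaling, no filter, removal of mitochondrial genes and the leave-out fits were not.

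The members and the pathway and marker lists were chosen with earlier results of these data known. All 10 members were named. Of the pathway lists, genes called in the same direction in all 4 comparisons with 0 h were named, or, in a list with none, up to 2 with the largest absolute log2 fold change among those called in RV at 8 h at a mean of at least 1 CPM. A further gene that met this rule is not reported here. The 5 genes nearest in pattern were named for Il6 and for Socs3. Correlations of same-numbered libraries' deviations from their group means were at least 0.493 between LV and RV at each storage time. They were at least 0.148 between storage times in RV and 0.486 or more between 4 h and 8 h in LV. In these comparisons the numbers were taken as pairs, but only in the fits with a block. The storage comparisons within a ventricle in the Results were fitted without a block, so their SE and adjusted p are unpaired. The study collected both ventricles of a heart, but no source used here states that a number names a heart. Each heart had 1 storage time, so a number shared between storage times does not name a heart. Between 0 h and 4 h or 8 h in LV the lowest correlations were 0.06 and −0.034, and the numbers were not taken as pairs.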

Additional observations from a re-analysis of the deposited data

Results flagged for a closer look

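With the heart as a block, the change from 0 h to 8 h differed between LV and RV for 5 members, each with the smaller change in LV, and the LV minus RV difference in log2 fold change was −1.33 for Il6, −1.50 for Lif, −0.91 for Osmr, −0.77 for Stat3 and −1.40 for Socs3 (edgeR adjusted p = 0.0317, 0.0304, 0.0105, 0.00939 and 0.0593). The unblocked fit called none of them, and whether the shared replicate number names a heart is not stated. Groups of 3 are too small for a search for single outlying libraries.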

How the results depend on the processing

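Against 0 h, the direction of every member held under all alternatives run. DESeq2 added Il11 in LV at 4 h and 8 h (log2 fold change 2.13 and 2.06, adjusted p = 0.0353 and 0.0294), as it did with length offsets, called 8 members higher in RV at 4 h, against 5, and 1 (Il6) with or without length offsets between 4 h and 8 h in RV. The share of all genes that DESeq2 called was not recorded, so its higher counts cannot be read as a result about the family. With the replicate block, 8 members were called between LV and RV at 8 h and 5 in the difference in change to 8 h, against 0 in both without it, and it changed no other count of calls among the paired comparisons. In LV against 0 h, where the numbers did not pair, the replicate block left 5 calls at 4 h (Il11 in, Stat3 out) and gave 5 at 8 h, while calls over all genes went from 407 to 662 and from 978 to 1540. Stat3 in LV at 4 h also lost its call with length offsets, with RLE scaling and without mitochondrial genes (edgeR adjusted p = 0.147, 0.117 and 0.113), and Il6ra in RV at 8 h with length offsets (0.102). Leaving out 1 library gave 0 to 5 calls in LV at 4 h, 1 to 8 in LV at 8 h, 5 to 7 in RV at 4 h, 6 to 9 in RV at 8 h and 0 to 2 between LV and RV at 8 h. In the LV fits the calls over all genes moved as well, with 14 to 669 higher at 4 h and 130 to 1422 at 8 h. In the blocked fits, leaving out 1 pair gave 3 to 8 calls at 8 h and 2 to 6 in the difference in change. The share of all genes was not counted in the RV, LV against RV and blocked fits with a library or pair left out.

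Directions of single members were followed between storage times and, at 8 h, between LV and RV and in the difference in change. There they turned in the cases given here, and no turned difference was called. For LV at 8 h against 4 h, the block gave 0.0778 for Il11, and length offsets gave −0.0101 (DESeq2) and −0.0072 (edgeR) for Il6st. Leaving out 1 library there gave −0.0837 to 0.61 for Osm, −0.45 to 0.55 for Il11, −0.21 to 0.41 for Il6ra, −0.14 to 0.15 for Il6st, −0.17 to 0.68 for Osmr and −0.65 to 0.0509 for Socs3. For RV at 8 h against 4 h it gave −0.36 to 0.0112 for Lifr and −0.24 to 0.0081 for Stat3. Lifr ranged from −0.21 to 0.16 between LV and RV at 8 h and from −0.10 to 0.27 in the difference in change to 8 h, where length offsets gave −0.032 (DESeq2) and −0.0095 (edgeR). The cause of these changes was not tested. The scarce members rest on few reads, 3 to 119 estimated counts in a library for Il11 and 9 to 77 for Osm.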

Other observations

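In unstored tissue, Il6ra lay lower in LV than in RV in all libraries: its LV libraries held 6.26, 7.26 and 6.78 CPM at 0 h and its RV libraries 9.47, 8.09 and 8.91 CPM, without overlap. The blocked log2 difference of −0.39 stayed under the fold threshold (edgeR adjusted p = 0.081). At 8 h it was −0.72, and the difference in change was not called (−0.33, edgeR adjusted p = 0.201). Adam17, a protease that sheds the IL-6 receptor from cells, was called higher in RV at 4 h and 8 h, by 0.65 and 0.72 on the log2 scale (edgeR adjusted p = 0.0282 and 0.011), and Adam10, another shedding protease, gave −0.06 and 0.01 (edgeR adjusted p = 0.912 and 0.975). Both genes were chosen for mention after their values were seen.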
